A study of Rattus norvegicus with 6 samples.

Results

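The non-collagen extracellular matrix of cultured rat vascular smooth muscle cells (VSMCs) was followed through 46 genes. They were picked by symbol, with earlier results of these data known. They make up 4 classes, with 16 genes of elastic fibres and microfibrils, 8 proteoglycans, 13 matricellular and adhesive glycoproteins, and 9 genes of the basement membrane. The table used here listed 41 of the 46 among its 13526 genes. Fbn2, Mfap2, Ogn, Tgfbi and Hspg2 were not listed under these symbols and were not analysed here. RNA was sequenced from primary smooth muscle cells of the thoracic aorta of wild-type rats. By the treatment labels, both groups were kept in osteogenic media (OM), which drives VSMCs towards calcification with 3.5 mM CaCl2 and 10 mM β-GP, a phosphate donor. The OM plus EMPA group also received 1 μM empagliflozin, an inhibitor of the glucose transporter SGLT2, and the OM group did not. There were 3 samples in each group. Culture lasted 5 days per the labels. The paper gives a shorter time, and the sample titles name the medium Pi where the treatment label gives OM. In the paper Pi stands for inorganic phosphate, a calcifying treatment separate from OM. The medium is taken here from the treatment label, and the conflict could not be settled. No VSMCs in complete media were analysed here, and each comparison is of the OM plus EMPA group against the OM group. Whether the 3 samples of a group are separate cultures or animals is not stated, and p-values therefore measure the spread among these 6 samples only, which may be technical.

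The matrix around smooth muscle cells is more than collagen. Elastin is deposited on microfibrils built from fibrillins, with fibulins and lysyl oxidases as helpers, and gives the aorta its recoil. Small leucine-rich proteoglycans such as decorin and biglycan sit on collagen fibrils and bind growth factors, and versican forms hydrated gels with hyaluronan. Matricellular proteins such as thrombospondins, tenascin-C and the CCN family act mainly as signals to cells, while laminins and nidogens form the basement membrane that wraps each muscle cell.

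The deposited values were TPM, transcript abundances corrected for length, which sum to 997954 to 998293 per sample and keep no record of sequencing depth. Of 9 smooth muscle markers 8 were listed. Their summed level was 2811 to 3293 TPM in the OM plus EMPA group vs. 2002 to 2464 TPM in the OM group. By the limma test described below, 5 of the 8 (Acta2, Tagln, Cnn1, Myl9 and Lmod1) rose, against 2.06% of all tested genes. Smtn (log2 fold change 0.15, limma adjusted p = 0.166), Synpo2 (0.03) and Myh11 (-0.17) did not pass, Synpo2 and Myh11 with overlapping groups. With 1 sample left out in turn, Cnn1 kept its call in 5 of 6 fits, Acta2 and Lmod1 in 2, and Tagln and Myl9 in 1, and without the variance trend Acta2, Tagln and Myl9 lost theirs (limma adjusted p = 0.0634, 0.0638 and 0.0871). Only Egfl7 of 8 endothelial markers was listed, at a level that overlapped between groups (21.1 to 22.3 vs. 19.6 to 21.5 TPM), and Pecam1, Cdh5, Vwf and Kdr were not. Of 10 macrophage and leukocyte markers 3 were listed, Ptprc was not, and their summed level, most of it Fcer1g, was 145 to 152 vs. 153 to 162 TPM. Cd68, a macrophage lysosomal protein, was at 9.52, 5.1 and 7.86 TPM vs. 13.6, 12.8 and 14.9 TPM and fell by 0.83 in log2 units (limma adjusted p = 0.0378, at or under the threshold in 2 of 6 fits with 1 sample left out). Of 6 fibroblast markers 5 were listed, their summed level was 228 to 240.4 vs. 205 to 230.4 TPM, Scara5 rose and Pdgfra fell. The call of Pdgfra (limma adjusted p = 0.0488) was lost in all 6 fits with 1 sample left out, with median-ratio scaling (0.093), without mitochondrially encoded genes (0.0683) and without the variance trend (0.1). Mitochondrially encoded transcripts took 10.7 ± 0.312% of TPM in the OM plus EMPA group vs. 8.90 ± 0.852% in the OM group (SD, n = 3). In bulk samples fewer cells of a type and less RNA per cell cannot be told apart, and the part of these markers in the results was not tested.

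The matrix genes were among the most abundant transcripts of these cells. The median member was at 191 TPM, while the median tested gene was at 18.5 TPM, and 23 of the 41 members lay in the top 10% of tested genes. Fn1 (fibronectin), Dcn (decorin), Bgn (biglycan), Thbs1 (thrombospondin-1) and Ccn3 each exceeded 1000 TPM and together made up 68.4% of the summed TPM of the 41 genes. A further 18 members lay between 100 and 1000 TPM, 13 between 10 and 100 TPM, and Cemip between 3 and 10 TPM. Efemp1, Emilin2, Ltbp4 and Aspn lay under 3 TPM, where the samples of a group differed by up to 48.8% (coefficient of variation, Efemp1 in the OM group). The median coefficient of variation of the members was 7.08% in the OM plus EMPA group and 8.01% in the OM group. OM replicate 1 had the lowest value of the 3 OM samples for 27 of the 41 members, and for 32.6% of all tested genes.

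**Figure D1:**
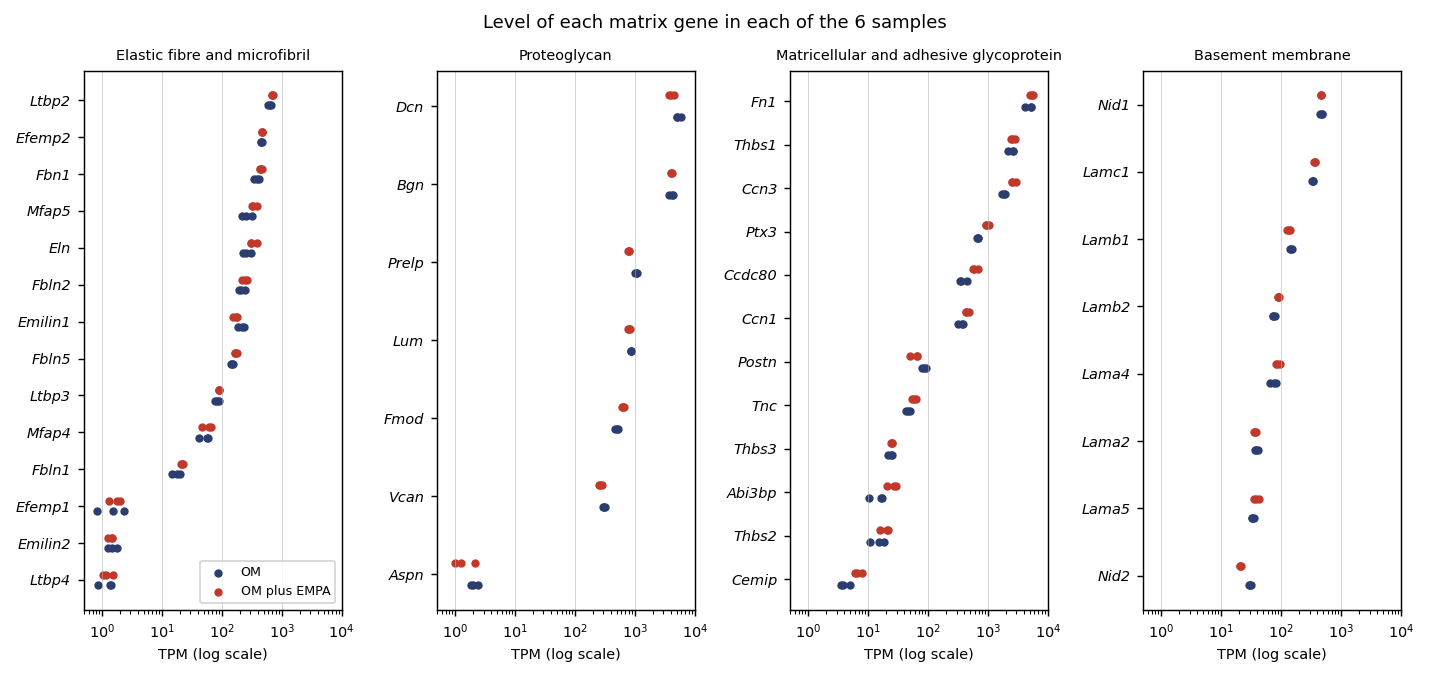
Each point is the TPM of a gene in 1 sample on a log axis, with 3 OM samples in blue and 3 OM plus EMPA samples in red, and genes are ordered by mean level within their class. Levels span from about 1 TPM for Ltbp4 to over 5000 TPM for Fn1 and Dcn, and for most genes the distance between groups is small against the distance between genes.

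The test was limma on log2(TPM + 1) over 12564 genes whose mean reached 1 TPM, all 41 listed members among them, and a gene was said to have risen or fallen at an adjusted p (Benjamini-Hochberg over all tested genes) of at most 0.05. A log2 fold change on this scale understates the change of low genes. With empagliflozin, 9 members rose, 4 fell and 28 did not pass the test. Among all tested genes 6.92% passed, with 2.06% higher and 4.86% lower, and among the tested genes whose mean reached 10 TPM 8.4% passed, with 2.45% higher and 5.96% lower. The risen members were Fbln5, Fmod, Tnc, Ccn3, Ccdc80, Abi3bp, Ptx3, Cemip and Lamb2, and the fallen ones were Dcn, Prelp, Postn and Nid2. All OM plus EMPA samples lay above all OM samples for 18 members and below them for 7. Among all tested genes the groups did not overlap for 30.4%, with 7.85% above and 22.5% below. The median log2 fold change of the members was 0.14, with a range from -0.52 to 0.80, and that of all tested genes was -0.05.

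Scaling and single samples moved these counts. With median-ratio scaling of the TPM, 390 genes of the whole table rose and 381 fell, against 259 and 611 with the TPM as deposited, and 10 members rose and 3 fell. Lamc1 then passed the test (limma adjusted p = 0.0323) and Dcn no longer did (limma adjusted p = 0.0733). Without the variance trend 5 members rose and 2 fell, and Abi3bp, Cemip, Dcn, Fbln5, Postn and Tnc lost their calls. Without OM plus EMPA replicates 1, 2 and 3 in turn, 5, 4 and 4 members rose, and without OM replicates 1, 2 and 3 in turn, 5, 9 and 3 rose. The members that fell numbered 3, 3, 4, 3, 3 and 2 in the same order. Nid2, Prelp, Ptx3, Ccn3 and Ccdc80 passed the test without any 1 sample, and the direction of all 13 stayed the same under every alternative run.

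**Figure D2:**
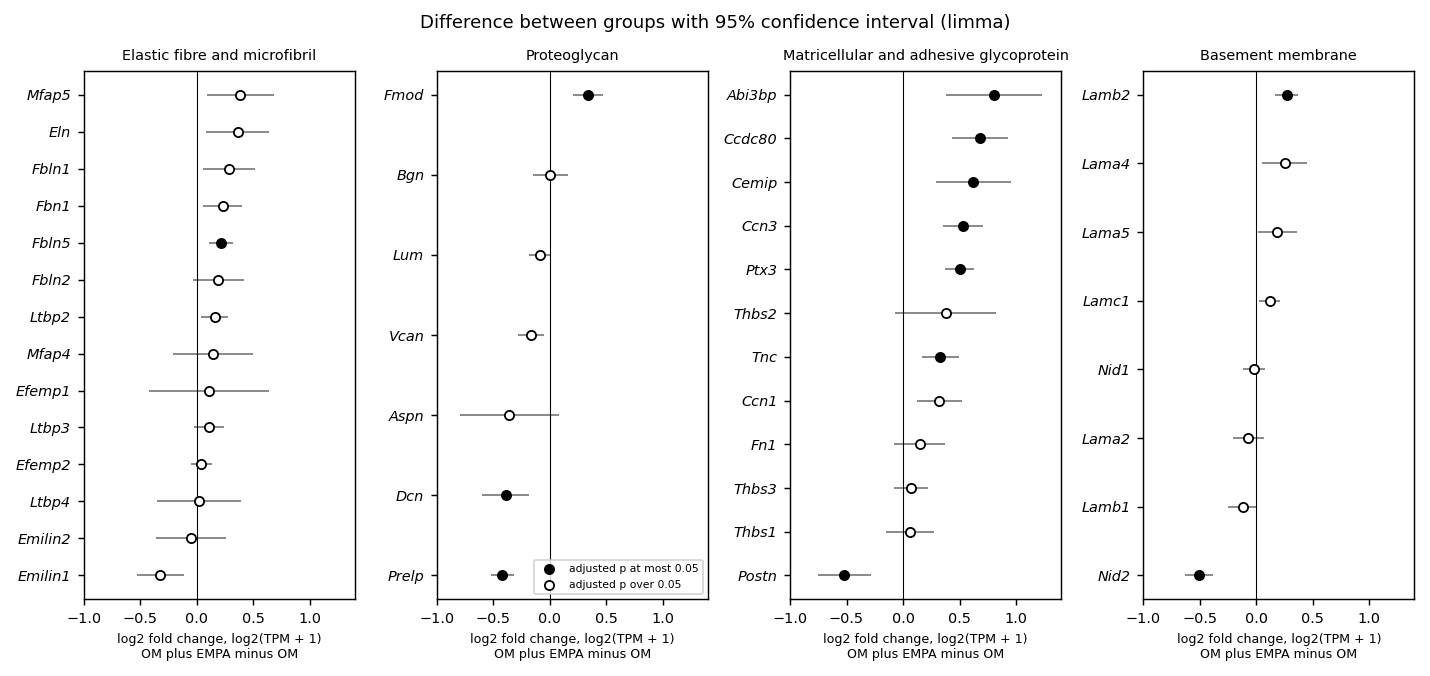
Points are log2 fold changes of log2(TPM + 1), the OM plus EMPA group minus the OM group, with bars for the 95% confidence interval from limma, and filled points passed the test. The matricellular class holds 6 of the 9 filled points to the right of 0, and the elastic fibre class holds 1.

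Of the 14 listed genes of elastic fibres and microfibrils, 1 passed the test, or 7.14%, a share close to the 6.92% of all tested genes. The log2 fold change was above 0 for 12 of the 14 and the class median was 0.15, and the samples of the 2 groups did not overlap for 7 of the 14, against 30.4% of all tested genes. For 6 of the 14 all treated samples were above all OM samples, against 7.85% of all tested genes. Fbln5 encodes fibulin-5, which tethers elastin to microfibrils and integrins. It was at 169, 166 and 179.98 TPM in the OM plus EMPA group vs. 145, 147 and 154 TPM in the OM group. All 3 treated samples were above all 3 OM samples, and Fbln5 rose by 0.21 in log2 units (SE 0.05, limma adjusted p = 0.0375). The call was lost without each single sample, with an adjusted p between 0.0699 and 0.109 from limma, and in a fit without the variance trend (0.0954).

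The most abundant genes of this class did not pass the test. Ltbp2, a large microfibril protein related to the TGF-β binding LTBPs, was at 699, 683 and 721 TPM in the OM plus EMPA group vs. 588, 653 and 644 TPM in the OM group. The groups did not overlap, but its log2 fold change of 0.16 (SE 0.05) had an adjusted p of 0.117. Fbn1, the fibrillin that forms the microfibril backbone, was at 435, 473 and 437 TPM vs. 343, 417 and 389.8 TPM, with a log2 fold change of 0.23 (SE 0.07, limma adjusted p = 0.110). Efemp2 (fibulin-4), which brings lysyl oxidase to elastin, was at 477, 463 and 474 TPM vs. 448, 472 and 455 TPM, and its samples overlapped between groups. The 95% confidence interval of its log2 fold change ran from -0.05 to 0.13.

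Emilin1, a glycoprotein at the boundary of elastin and microfibrils, was the gene of this class with the lowest log2 fold change. Its level was 156, 175 and 178 TPM in the OM plus EMPA group vs. 185, 221 and 232 TPM in the OM group. All treated samples were below all OM samples, and the log2 fold change of -0.32 (SE 0.09) had an adjusted p of 0.0744 from limma. Without OM replicate 1 it passed the test (limma adjusted p = 0.0302). Eln, which encodes elastin itself, averaged 338 ± 45.5 TPM vs. 263 ± 37.6 TPM (SD, n = 3), and Mfap5, a microfibril-associated glycoprotein, averaged 343 ± 35.7 TPM vs. 265 ± 48 TPM. Their log2 fold changes of 0.36 and 0.38 did not pass the test with all 6 samples (limma adjusted p = 0.119 and 0.120), and Mfap5 passed it without OM replicate 2 (limma adjusted p = 0.0381). For both genes every treated sample was above every OM sample, for Mfap5 by a narrow gap (316 TPM on either side). The remaining genes, Fbln1, Fbln2, Mfap4, Ltbp3, Efemp1, Ltbp4 and Emilin2, had log2 fold changes from -0.05 to 0.29, and of these only Fbln1 (0.29) had groups that did not overlap.

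Among the proteoglycans the small leucine-rich members split. Dcn and Prelp fell, Fmod rose, and Bgn overlapped between groups. Of the 7 listed proteoglycans 3 passed the test, or 42.9%, against 6.92% of all tested genes. For 1 gene all treated samples were above all OM samples and for 4 they were below, against 7.85% and 22.5% of all tested genes. Decorin binds collagen fibrils and TGF-β, and its gene Dcn was the second most abundant member. Dcn was at 4095, 3759 and 4484 TPM in the OM plus EMPA group vs. 5148, 5115 and 5938 TPM in the OM group. Every treated sample was below every OM sample, and Dcn fell by 0.39 in log2 units (SE 0.09, limma adjusted p = 0.0411). This call was lost with median-ratio scaling, without mitochondrially encoded genes (limma adjusted p = 0.0513), without the filter on low genes (0.0529) and without the variance trend (0.0714). It was also lost without each single sample other than OM plus EMPA replicate 3, with an adjusted p of up to 0.124.

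Prelp encodes a leucine-rich protein that bridges collagen and heparan sulfate of basement membranes. Its level was 792, 775 and 803 TPM in the OM plus EMPA group vs. 1043, 1104 and 1027 TPM in the OM group. The groups were far apart relative to their spread, and Prelp fell by 0.42 in log2 units (SE 0.05, limma adjusted p = 0.00387). Fmod encodes fibromodulin, which shapes collagen fibril growth. It was at 606, 656 and 643 TPM vs. 472, 536 and 503 TPM, higher in all 3 treated samples, and rose by 0.34 (SE 0.06, limma adjusted p = 0.0166). The adjusted p of Fmod was 0.0624, 0.0544 and 0.061 without OM plus EMPA replicate 2, OM plus EMPA replicate 3 and OM replicate 3, respectively.

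Biglycan is the closest relative of decorin. Bgn was at 3970.2, 3953 and 4247 TPM in the OM plus EMPA group vs. 3759.9, 4114 and 4271 TPM in the OM group. The groups overlapped, and the 95% confidence interval of its log2 fold change ran from -0.15 to 0.16. Vcan (versican) was at 268, 258 and 287 TPM vs. 296, 303 and 316 TPM, and Lum (lumican) was at 825, 779.6 and 816 TPM vs. 868, 853 and 849.9 TPM. Both were lower in every treated sample, but their log2 fold changes of -0.17 and -0.09 did not pass the test (limma adjusted p = 0.0896 and 0.248). Aspn (asporin) was listed at 1.47 ± 0.597 vs. 2.11 ± 0.318 TPM (SD, n = 3), with overlapping groups.

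The matricellular and adhesive glycoproteins held most of the members that rose. Of 12 listed genes 6 rose, 1 fell and 5 did not pass the test, while 2.06% of all tested genes rose and 4.86% fell. The log2 fold change was above 0 for 11 of 12, and the class median was 0.35. RefSeq gives a promoter window on the GRCr8 build for 6 genes of this class that passed the test. Those of Ptx3, Tnc, Cemip and Postn are shown, 3 genes that rose and the 1 of this class that fell, and those of Abi3bp and Ccdc80, which also rose and hold neither TATAAA nor TATATAA, are not. The 100 bases before the start of each are printed on the strand of the gene, with capitals on the TATAAA or TATATAA motif that was found in them.
Ptx3 (chr2:152797463-152797562, + strand): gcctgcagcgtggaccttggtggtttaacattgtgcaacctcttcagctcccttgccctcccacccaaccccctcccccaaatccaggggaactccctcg
Tnc (chr5:82476132-82476231, - strand): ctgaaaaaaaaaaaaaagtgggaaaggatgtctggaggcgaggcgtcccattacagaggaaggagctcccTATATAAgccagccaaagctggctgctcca
Cemip (chr1:147471484-147471583, - strand): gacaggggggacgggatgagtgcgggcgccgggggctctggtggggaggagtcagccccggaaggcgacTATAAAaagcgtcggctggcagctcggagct
Postn (chr2:140677961-140678060, + strand): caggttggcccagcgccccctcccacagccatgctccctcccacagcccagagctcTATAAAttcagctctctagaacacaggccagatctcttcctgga

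Abi3bp, a collagen-binding glycoprotein, had the largest log2 fold change of all members. Its level was 21.1, 28.8 and 27.3 TPM in the OM plus EMPA group vs. 10.5, 16.9 and 16.2 TPM in the OM group. The spread within each group was wide, but no treated sample reached down to an OM sample, and Abi3bp rose by 0.80 (SE 0.18, limma adjusted p = 0.0423). Of the 6 fits with 1 sample left out, it kept this call in the one without OM replicate 2 (0.0481), and its adjusted p reached 0.137 without OM plus EMPA replicate 2. Ccdc80, a matrix protein of fat and mesenchymal cells, was at 572, 685 and 587 TPM vs. 348, 449 and 357 TPM, and its log2 fold change of 0.68 stayed past the threshold without each single sample. In both groups replicate 2 was the highest. Cemip encodes a hyaluronan-binding protein needed for hyaluronan breakdown. Its level was low, at 6.63, 7.93 and 5.96 TPM vs. 3.81, 5.04 and 3.5 TPM, and it rose by 0.62 (SE 0.14, limma adjusted p = 0.0442), a call that held among the leave-out fits only without OM replicate 2 (0.0302) and otherwise had an adjusted p between 0.0606 and 0.137.

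Ccn3, the CCN family member first known as NOV, was the most abundant member that rose. It was at 2943, 2522 and 2512 TPM in the OM plus EMPA group vs. 1955, 1829 and 1732 TPM in the OM group. All treated samples lay well above the OM samples, and Ccn3 rose by 0.53 (SE 0.08, limma adjusted p = 0.0101). Ptx3 encodes pentraxin-3, a secreted pattern recognition protein that also crosslinks hyaluronan matrix. It was at 1040.4, 919 and 927 TPM vs. 666, 685 and 686 TPM, with a coefficient of variation of 1.67% among the OM samples, and rose by 0.50 (SE 0.06, limma adjusted p = 0.00451). Tnc encodes tenascin-C, a glycoprotein of tissue repair. It was at 54.7, 57.9 and 63.2 TPM vs. 43.1, 49.6 and 46.5 TPM and rose by 0.33 (SE 0.07, limma adjusted p = 0.0356). Tnc kept its call when OM replicate 2 or OM plus EMPA replicate 1 was left out, and lost it when any of the others was, with an adjusted p between 0.0908 and 0.101.

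Postn, which encodes periostin, a matricellular protein that binds integrins and collagen, was the only gene of this class that fell. It was at 65.2, 51.1 and 65.2 TPM in the OM plus EMPA group vs. 86.6, 79.9 and 93.8 TPM in the OM group. No treated sample reached the lowest OM sample, and Postn fell by 0.52 in log2 units (SE 0.10, limma adjusted p = 0.027). Without OM replicate 1 or OM replicate 3 its adjusted p was 0.0799 and 0.0861.

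**Figure D3:**
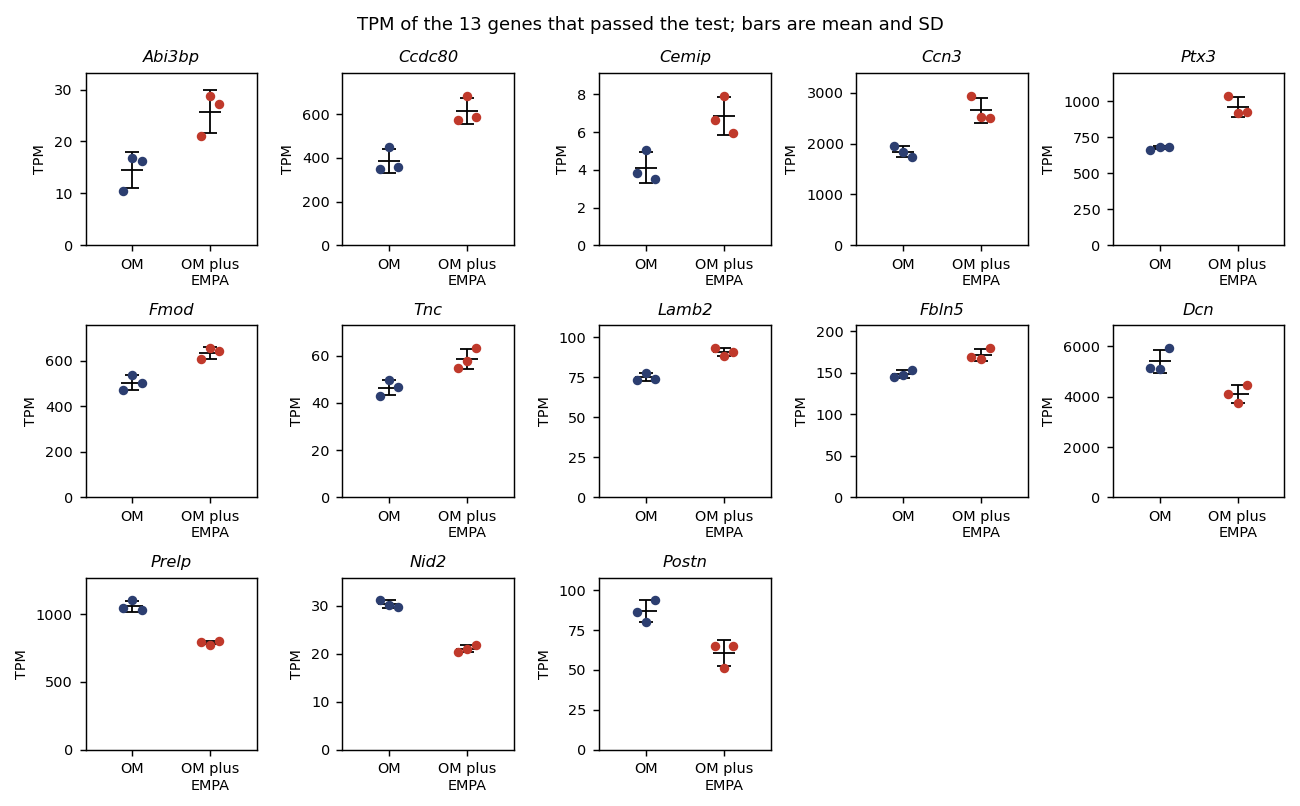
Each panel shows the TPM of 1 of the 13 members that passed the test on an axis from 0, with a point per sample and bars for the mean and SD of 3 samples. In each of the 13 panels the 3 OM plus EMPA samples do not overlap the 3 OM samples, against 30.4% of all tested genes. The genes were selected by the test on these same samples, so this separation largely follows from that selection and adds no support.

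The most abundant adhesive glycoproteins overlapped between groups. Fn1, the main cell-binding glycoprotein of the matrix and the most abundant member, was at 5082, 5555 and 5643 TPM in the OM plus EMPA group vs. 4229, 5316 and 5194 TPM in the OM group. OM replicate 1 was well below the other OM samples, and the 95% confidence interval of the log2 fold change ran from -0.08 to 0.37. Thbs1, an activator of latent TGF-β, was at 2406, 2516 and 2793 TPM vs. 2169.6, 2588 and 2668 TPM, with an interval from -0.16 to 0.27. Ccn1, the CCN member known as CYR61, was at 428, 489 and 432 TPM vs. 317, 389 and 375 TPM. Its groups did not overlap, and the log2 fold change of 0.32 (SE 0.09) had an adjusted p of 0.067 from limma. Thbs2 and Thbs3 had log2 fold changes of 0.38 and 0.07 and overlapping groups.

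In the basement membrane, 1 laminin chain rose, 1 nidogen fell and 6 of 8 listed genes did not pass the test. The share that passed was 25%, against 6.92% of all tested genes. Nid1 and Nid2 encode nidogens, which link laminin to type IV collagen. Nid2 was at 20.3, 21.1 and 21.8 TPM in the OM plus EMPA group vs. 31.1, 30.1 and 29.7 TPM in the OM group. The samples of each group were close together and the groups far apart, and Nid2 fell by 0.51 (SE 0.05, limma adjusted p = 0.00383), the smallest adjusted p of all members. Nid1 was far more abundant, at 459, 462 and 469 TPM vs. 449, 474 and 485 TPM. Its groups overlapped, its 95% confidence interval ran from -0.12 to 0.08, and its sign turned with median-ratio scaling.

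Laminins are trimers of an α, a β and a γ chain. Lamb2, the laminin β2 chain, was at 93.4, 88.4 and 90.6 TPM in the OM plus EMPA group vs. 73.3, 77.8 and 74.2 TPM in the OM group. Every treated sample was above every OM sample, and Lamb2 rose by 0.27 (SE 0.04, limma adjusted p = 0.0138), with an adjusted p of 0.0567 when OM replicate 3 was left out and 0.0501 when OM plus EMPA replicate 1 was. Lamc1, the γ1 chain that most laminins share, was at 376, 354 and 369 TPM vs. 332, 339 and 339 TPM. Lama4 and Lama5, α chains of vascular laminins, were at 86, 84 and 95.3 TPM vs. 65.3, 75.6 and 81.8 TPM and at 42.9, 35.5 and 37.7 TPM vs. 33.4, 35.2 and 32.8 TPM, respectively. For these 3 genes the groups did not overlap, and the log2 fold changes of 0.12, 0.25 and 0.19 had adjusted p-values of 0.115, 0.127 and 0.181 from limma. Lamb1 (β1) and Lama2 (α2, the muscle laminin chain) had log2 fold changes of -0.12 and -0.07 with overlapping groups.

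As shares within a chain type, which do not depend on the scaling of a sample, β2 made up 40.3 ± 0.923% of the summed TPM of the β chains in the OM plus EMPA group vs. 33.9 ± 1.41% in the OM group (SD, n = 3). The β1 chain held 59.6 ± 0.895% vs. 65.9 ± 1.4%, and the β3 chain held the small rest. Among α chains α4 held 52.4 ± 1.74% vs. 48.8 ± 2.07%, and α2 held 21.8 ± 0.520% vs. 25.4 ± 0.668%. The shares of β2, β1 and α2 did not overlap between groups, and those of α4 did. With so little β3, the β1 and β2 shares mirror each other and are a single result. That result partly restates the call of Lamb2 in the same samples. The γ1 chain held 97.8% and 97.2% of γ chain TPM.

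Summed over their listed genes, the classes differed in direction, while the shares of the whole set in the transcriptome overlapped. The 41 genes together made up 2.79 ± 0.0732% of TPM in the OM plus EMPA group and 2.70 ± 0.157% in the OM group (SD, n = 3), with overlapping samples. The matricellular class summed to 12659, 12876 and 13101 TPM vs. 9863, 11446 and 11214 TPM, and the elastic fibre class to 2957, 3179 and 3050.3 TPM vs. 2557, 2931 and 2707 TPM. Both sums were higher in every treated sample. Most of the matricellular sum was Fn1, Thbs1 and Ccn3, and of these Fn1 and Thbs1 overlapped between groups. The proteoglycan class summed to 10557, 10183 and 11282 TPM vs. 11589, 12027 and 12907 TPM, lower in every treated sample, and most of that sum was Dcn and Bgn. Dcn fell, while Bgn overlapped between groups, so the sums need not describe the other genes of a class. The basement membrane class summed to 1249, 1208 and 1262 TPM vs. 1159, 1215 and 1239 TPM and overlapped. With median-ratio scaling the elastic fibre and matricellular sums stayed apart, the proteoglycan sums overlapped (10519 to 11469 vs. 11285 to 12709), and the basement membrane sums no longer did (1248 to 1283 vs. 1129 to 1219.9). No test was made of the difference between classes.

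**Figure D4:**
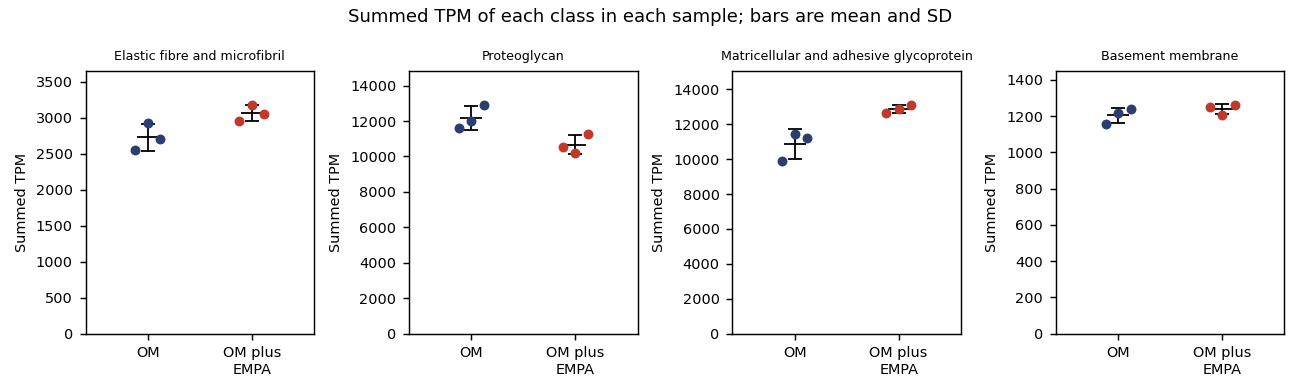
Points are the summed TPM of the listed genes of each class in 1 sample, on axes from 0, with bars for the mean and SD of 3 samples per group. The matricellular sums are 12659 to 13101 TPM with empagliflozin against 9863 to 11446 TPM in OM, and the proteoglycan sums lie the other way.

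Ratios of partner genes within a sample were compared next, since they too do not depend on scaling. With 3 against 3 samples the exact 2-sided permutation test cannot go below p = 0.1, so no ratio could pass the threshold. For 6 of 9 ratios the groups did not overlap (exact permutation p = 0.1, adjusted p = 0.15 over 9 ratios). Dcn was at 1.03, 0.951 and 1.06 times Bgn in the OM plus EMPA group vs. 1.37, 1.24 and 1.39 times in the OM group. Lamb1 was at 1.45, 1.44 and 1.54 times Lamb2 vs. 1.89, 1.86 and 2.09 times. The log2 ratios of Nid2 to Nid1, Postn to Fn1 and Vcan to Bgn were lower with empagliflozin by 0.51, 0.68 and 0.18, respectively, and that of Tnc to Fn1 was higher by 0.19. Of these 6 ratios, all but Vcan to Bgn hold a member that passed the test in the same samples, so they partly restate those calls. No share over other gene pairs was computed. The groups overlapped for Thbs2 to Thbs1 (log2 difference 0.34, exact permutation p = 0.2), Eln to Fbn1 (0.13, exact permutation p = 0.6) and Lama4 to Lama5 (0.07, exact permutation p = 0.7). The ratios of Fbn2 to Fbn1 and of Mfap5 to Mfap2 were not analysed here.

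**Figure D5:**
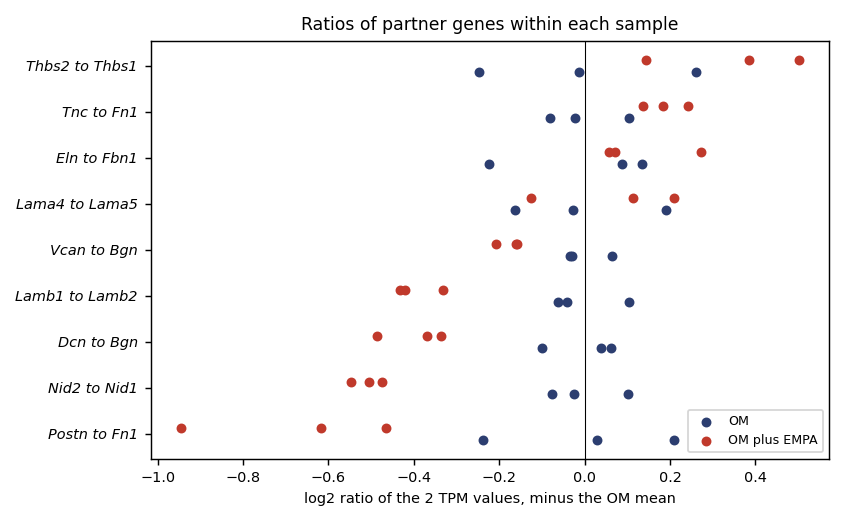
Each point is the log2 ratio of a pair of TPM values in 1 sample, minus the mean of the 3 OM samples for that pair. The OM plus EMPA samples lie left of all OM samples for 5 pairs, right of them for Tnc to Fn1, and among them for 3 pairs.

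Other genes of the same matrix systems were counted from companion lists, 110 genes of which 87 were listed and 79 tested. Of the 79, 5 rose and 7 fell, or 15.2%, against 6.92% of all tested genes. The companion lists were chosen with earlier results of these data known. Their shares over all tested genes may be raised by that choice. In the elastic fibre assembly list 0 of 12 tested genes rose and 2 fell by limma, or 16.7%. Both are lysyl oxidases, which crosslink elastin and collagen. Loxl3 was at 86.8 ± 2.14 TPM in the OM plus EMPA group vs. 115 ± 13.2 TPM in the OM group, and Loxl4 was at 7.38 ± 0.773 vs. 11.98 ± 1.31 TPM (SD, n = 3). Their log2 fold changes were -0.39 and -0.63 (limma adjusted p = 0.0272 and 0.015). Of the fits with 1 sample left out, Loxl3 kept its call in those without OM replicate 1 or OM replicate 3 (adjusted p between 0.0538 and 0.0863 without each other sample), and Loxl4 lost it without OM replicate 3 (0.0567).

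Of 34 tested genes in the list of other proteoglycans and glycosaminoglycan enzymes, 2 rose and 3 fell, or 14.7%, against 6.92% of all tested genes. Has2, a hyaluronan synthase, was at 0.87, 0.93 and 1.24 TPM in the OM plus EMPA group vs. 3.73, 2.41 and 2.98 TPM in the OM group. Its levels were low, and it fell by 1.00 on the log2(TPM + 1) scale (SE 0.16, limma adjusted p = 0.0124), with an adjusted p of 0.0512 without OM plus EMPA replicate 2. Cd44, the hyaluronan receptor, was at 258 ± 8.99 vs. 349 ± 19.3 TPM (SD, n = 3) and fell by 0.43 (SE 0.05, limma adjusted p = 0.00481). Gpc4, a membrane heparan sulfate proteoglycan, and Hs6st1, a heparan sulfate sulfotransferase, rose by 0.46 and 0.55 (limma adjusted p = 0.0128 and 0.0126). Sdc4, a membrane heparan sulfate proteoglycan named here after its values were seen, was at 187 ± 10.6 vs. 236 ± 18 TPM (SD, n = 3) and fell by 0.34 (SE 0.07, limma adjusted p = 0.0272), a call kept in 2 of the 6 fits with 1 sample left out. Of the other hyaluronan genes in the list, Has1, Hyal1, Hyal2, Tnfaip6 and Hapln3 had overlapping groups and did not pass the test.

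Among 19 further matricellular genes 3 rose and 1 fell, or 21.1%, against 6.92% of all tested genes. Spp1 encodes osteopontin, a phosphoprotein of mineralised matrix. It was at 1288, 914 and 1557 TPM in the OM plus EMPA group vs. 2546, 1940.4 and 2750.2 TPM in the OM group. The groups did not overlap, and Spp1 fell by 0.96 (SE 0.20, limma adjusted p = 0.031). It lost its call without OM plus EMPA replicates 1 or 2 or OM replicates 1 or 3 (adjusted p between 0.0624 and 0.0998). Ccn2 (CTGF), Fndc1, a fibronectin type III protein, and Svep1, a large adhesion protein, rose by 0.38, 0.37 and 0.41 (limma adjusted p = 0.0302, 0.009 and 0.0352). Ccn2 lost its call without each single sample (adjusted p between 0.0519 and 0.0815), and of these fits Svep1 kept it in the one without OM replicate 2 (0.0162). Of 14 further basement membrane and laminin receptor genes 1 passed the test, or 7.14%, a share close to the 6.92% of all tested genes. This was Itga7, the α7 integrin chain that binds laminin, which fell by 0.66 from 4.10 ± 0.762 to 2.22 ± 0.450 TPM (SD, n = 3, limma adjusted p = 0.045). The call was lost without each single sample (limma adjusted p between 0.0604 and 0.128).

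Some members lie next to each other on the chromosomes, by the coordinates in the authors' table, whose build the sources used here do not give. Prelp (chromosome 13, 45368019 to 45380270, minus strand) and Fmod (45493517 to 45504507, plus strand) are 113 kb apart with 1 listed gene between them. They encode related leucine-rich proteins and moved in opposite directions, with log2 fold changes of -0.42 and 0.34. Dcn (chromosome 7, 32280937 to 32321270, plus strand) and Lum (32358614 to 32365793, plus strand) are 37.3 kb apart with 0 listed genes between them, and had log2 fold changes of -0.39 and -0.09. By the gene ontology terms in the table, 16 of the 41 members are annotated with calcium ion binding, which 2.83% of annotated genes carry, and they include the fibrillin, fibulins, LTBPs, nidogens and thrombospondins. Of these 16, Fbln5 and Nid2 passed the test, one in each direction. Heparin binding is annotated for 11 of the 41 members and for 5 of the 13 that passed the test (Ccn3, Prelp, Postn, Ccdc80 and Abi3bp). Among annotated genes 0.713% carry it. The members were picked as matrix genes, so an excess of both terms over all annotated genes follows from that choice. Whether the terms differ between members that passed and the others was not tested.

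A RefSeq promoter window, from 250 bases before to 50 bases after the start, was at hand for 29 of the 41 members and for 8 of the 13 that passed the test. Members were counted once per gene, while the shares over all windows count each window, so they are not in the same unit. The TATAAA motif, searched on both strands, was in the windows of 5 of the 29 members (Ccn1, Cemip, Lama4, Postn and Tnc) and in 14.2% of all 33469 windows. TATATAA, which overlaps TATAAA in Lama4 only, was in those of Lama4 and Tnc and in 3.93% of all. Counted from the start, the motif printed in capitals begins at base -30 in Tnc, -31 in Cemip and -44 in Postn. Cemip (TATAAA) and Tnc (TATATAA) rose and Postn (TATAAA) fell. Ccn1, whose TATAAA begins at base -34, did not pass the test. A link between these motifs and the direction of a gene was not tested. GGAATG, the TEAD motif, was found for 7 of the 29 members (Abi3bp, Ccn1, Emilin2, Fbln5, Lamc1, Nid1 and Thbs1) and in 14.2% of all windows. TGANTCA, the AP-1 motif, was found for Efemp1 and in 7.33% of all windows. The CArG box was found for Lama2 and in 1.64% of all windows, and the NF-kB motif for 0 of the 29 members and in 1.21% of all windows.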

How the data were processed

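The authors deposited a table of TPM for 13526 genes in 6 samples, together with their own log2 fold changes, p-values and FDR, which were not used, and a shorter table of genes selected from it, which was not used either. Per the submitters' notes the tools were HISAT2 2.0.5, RSEM, fastp and DESeq2, with no order stated, and the build is not given in the sources consulted. All value columns were matched to a sample (0 unknown). TPM keep no depth, so no precision by depth can be given, and a strong rise of some genes lowers the TPM of others.

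Members were matched by symbol. The members, classes, companion lists, markers and tests were chosen with earlier results of these data known. Values were analysed as log2(TPM + 1) with limma 3.58.1 (R 4.3.3) over genes whose mean reached 1 TPM, with group as the only term, a variance trend, 4 residual and 3.8 prior degrees of freedom, and Benjamini-Hochberg adjustment over all tested genes with a threshold of 0.05. Ratios and class sums were computed in Python 3.11.15, and ratios were compared by exact 2-sided permutation tests with SciPy 1.17.1. The script was tested on simulated data.

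Values per sample are given for members that passed the test, the 2 most abundant members of each class and up to 3 members per class with the smallest p among those that did not pass and whose groups do not overlap. Of the companions, those that passed are given, at most 4 per list, apart from Sdc4, which was added after its values were seen. Alternatives were a pseudocount of 0.1, no filter, median-ratio scaling, TPM without mitochondrially encoded genes, no variance trend, the replicate number as a block, and each sample left out in turn. Promoter windows came from RefSeq (GRCr8).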

Additional observations from a re-analysis of the deposited data

How the results depend on the processing

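The counts of genes that rose or fell depended on the fit. Without the variance trend 154 genes of the whole table rose and 366 fell, 5 members rose and 2 fell, with 0 elastic fibre genes higher, 1 proteoglycan lower, and 3 matricellular genes higher and 0 lower. In the companion lists of that fit 1 elastic fibre assembly gene was lower, 1 matricellular gene higher and 0 lower, and 0 basement membrane genes lower. With median-ratio scaling 390 genes rose and 381 fell, 1 proteoglycan was lower, 2 basement membrane members were higher, and of the companions 1 elastic fibre assembly gene and 1 basement membrane gene were higher and 0 basement membrane genes lower. Without the filter on low values and without mitochondrially encoded genes 1 proteoglycan was lower. The cause of these differences was not tested.

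The replicate numbers were not treated as pairs. The correlations of the deviations of same-numbered samples were 0.0979, 0.162 and 0.0575, although every sample correlated best with its own number, a hint from the data and not from the design. With the replicate number as a block, 449 genes rose and 951 fell and 16 members rose and 6 fell, with 5 elastic fibre genes higher (Eln, Fbn1, Fbln2, Mfap5 and Fbln5) and 1 lower (Emilin1), 3 proteoglycans lower, Vcan among them (limma adjusted p = 0.0342), and 2 basement membrane genes higher. Of the companions, 1 elastic fibre assembly gene was higher and 4 lower, 5 proteoglycan and hyaluronan genes, 8 matricellular genes and 1 basement membrane gene were higher.

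Leaving out each sample in turn gave 80 to 216 higher and 245 to 438 lower genes, and 3 to 9 higher and 2 to 4 lower members. By class these were 0 to 1 higher and 0 to 1 lower for elastic fibres, 0 to 1 and 1 to 2 for proteoglycans, 3 to 6 and 0 to 1 for the matricellular class, and 0 to 1 higher for the basement membrane. Among companions they were 1 to 2 lower for elastic fibre assembly, 1 to 3 lower for proteoglycans, 1 to 3 higher and 0 to 1 lower for matricellular genes, and 0 to 1 in either direction for basement membrane genes. The log2 ratio of Lama4 to Lama5 differed by -0.015 to 0.16 and turned sign without OM replicate 1 and, at -0.006, without OM plus EMPA replicate 3, and the other ratios kept their direction. The pseudocount of 0.1 changed no call of a named gene. Without counts, no limit by depth can be given, and the widest 95% confidence interval of a member was that of Efemp1 (-0.42 to 0.64).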
